A study of Homo sapiens with 6 samples.

Results

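The interleukin-1 family genes described here are 10 genes: the ligands IL1A, IL1B, IL18, IL33 and IL36G, the receptor antagonists IL1RN and IL36RN, the receptor subunits IL1R1 and IL1RAP, and the decoy receptor IL1R2. They were chosen by name from general knowledge of the family, with earlier results of these data known. Every probe set whose annotated symbol was one of them was taken. All 10 were on the array, with 19 probe sets among 54613 tested, and the genes were 10 of 19775 with a named probe set. RNA came from MCF10A, an established non-tumorigenic line of human mammary epithelial cells. One group of cultures received a miR-221 and miR-222 mimic by transfection and the other miR-control, called mimic and control here. Each group had 3 biological replicates on 3 single-colour arrays, and all 6 arrays share the cell line and the act of transfection. Values are log2 intensities, so a difference of 1 is a change of 2-fold. The sources used here give neither dose nor harvest time, nor the control's sequence, and no untransfected cells were analysed here.

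Interleukin-1 alpha and beta bind the receptor IL1R1, which then recruits the accessory chain IL1RAP and passes a signal through MYD88, IRAK kinases and TRAF6 to NF-kB and MAP kinases. The family is held in check by IL1RN, which occupies IL1R1 without signalling, and by IL1R2, which binds ligand and has no signalling domain. Epithelial cells store IL1A, IL18 and IL33 as ready-made proteins, and IL1B and IL18 become active after cleavage by caspase-1. A messenger RNA level therefore says nothing on how much active cytokine was released.

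The transfected microRNAs are shown because both carry the same seed, the bases 2 to 8 that do most of the pairing with messenger RNAs, printed in capitals. Both mature sequences are from RefSeq (GRCh38.p14), where hsa-miR-221-3p lies at chrX:45746180-45746202 and hsa-miR-222-3p at chrX:45747036-45747056, each on the minus strand. The 3p strands are assumed from the microRNAs' names, since the sources used here do not give the exact sequence of the mimic.
hsa-miR-221-3p: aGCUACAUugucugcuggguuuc
hsa-miR-222-3p: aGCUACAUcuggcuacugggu
Their first 8 bases are identical, with GCUACAU as the seed of each. Sites for this seed in the family's messenger RNAs were not analysed here.

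Array medians lay between 7.59 and 7.66, and 2 arrays of a group correlated with r of 0.995 to 0.998 over all probe sets, which are not independent replicates. The lowest value on any array was between 3.67 and 3.72. The line's epithelial identity was read from 7 markers, of which 5 were measured: KRT5, KRT14, KRT18, CDH1 and EPCAM were all above the array medians in both groups, and all 5 were lower with the mimic. Their summed linear signal ran from 10862 to 11663 in the mimic arrays and from 29974 to 31407 in the control arrays. Monocytes and macrophages make much interleukin-1, and of 6 measured markers of these cells 5 had means below the lowest array median. Their summed signal was 1155 to 1240 in the mimic and 1702 to 1739 in the control arrays; CD14 fell by 1.15, and ITGAM rose by 0.21 (limma adjusted p = 0.0483). Of 6 fibroblast markers 1 rose and 2 fell, with a summed signal of 14894 to 15747 against 6775 to 7238. DCN, the brightest of the 6 in both groups, had a log2 change of 1.66, while FAP and LUM had -1.60 and -1.06. Of 5 endothelial markers 1 fell (1608 to 1704 against 1883 to 2087), namely KDR with a log2 change of -1.48. Of 4 measured lymphocyte markers limma called 0, with CD3E and MS4A1 at an unadjusted p under 0.05 (adjusted p = 0.109 and 0.0709, higher in the mimic). All arrays are of the line MCF10A, and whether other cell types were present or had a part in the results below was not tested. In bulk RNA, fewer cells of a type and less RNA per cell cannot be told apart.

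Both interleukin-1 genes and both subunits of their receptor fell with the mimic, IL1A at 1 of its 2 probe sets, while the antagonist gene IL1RN and the ligand gene IL18 rose. With each gene taken from its brightest probe set on average, 2 of the 10 were called higher and 4 lower at an adjusted p under 0.05 (limma, Benjamini-Hochberg over all probe sets). The background was high: 30.4% of all genes were called, 14.1% higher and 16.3% lower. The 6 called genes also had groups that did not overlap, as 45.6% of all genes did. All changes were below 2-fold: the called ones were between 0.28 and 0.64 on the log2 scale in size. The median change of the 10 genes was -0.02, beside 0.03 for all genes.

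**Figure D1:**
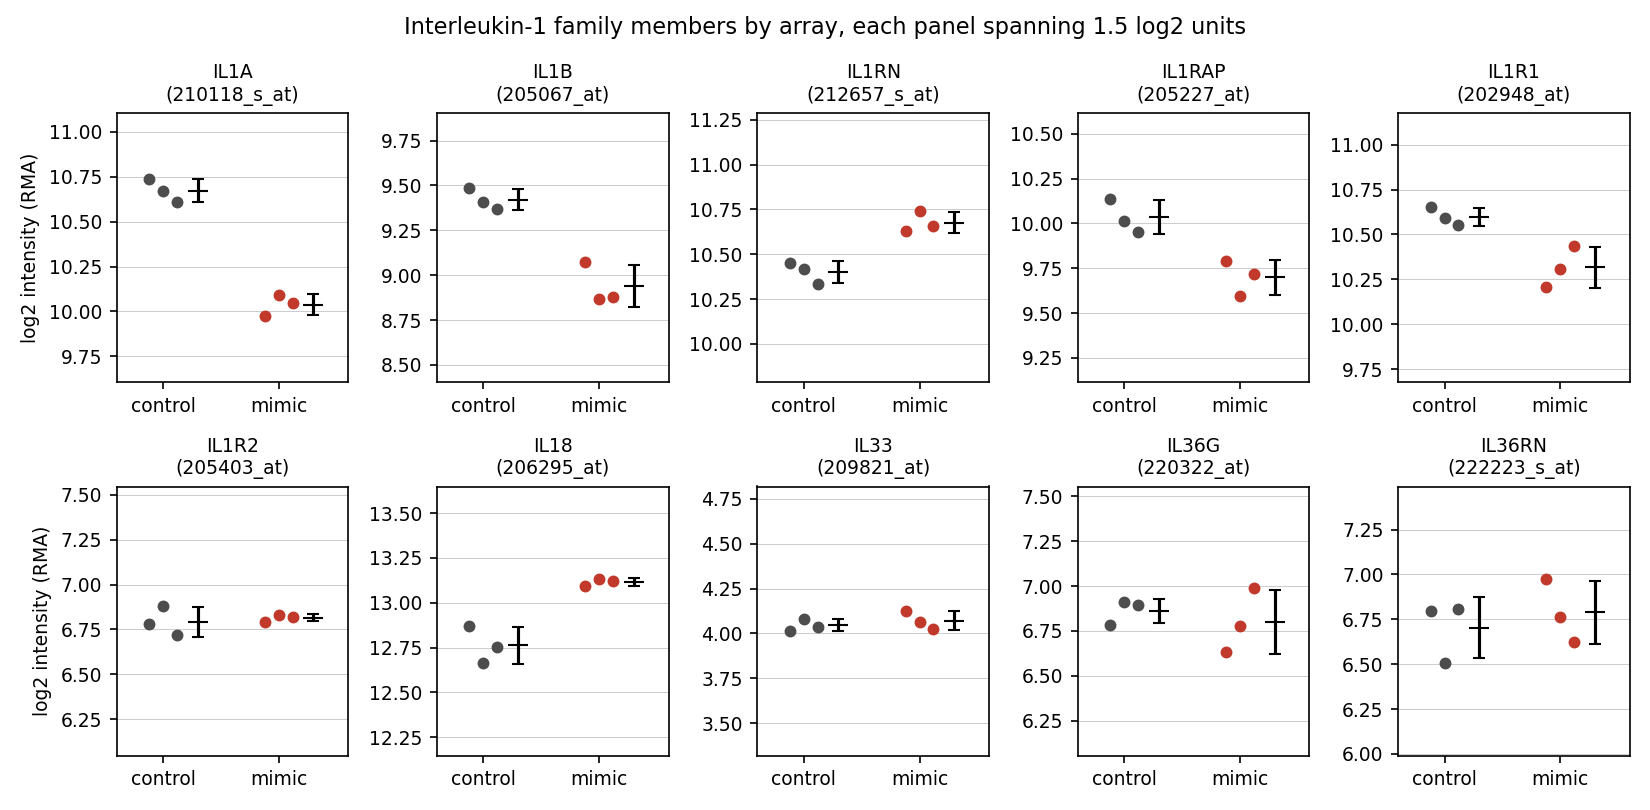
Log2 intensity (y axis) of the 10 genes on each of 3 control and 3 mimic arrays, from the brightest probe set of each gene; points are arrays in replicate order, and the bar is the mean with its SD. IL1A, IL1B, IL1RAP and IL1R1 lie lower in the mimic arrays and IL1RN and IL18 higher, without overlap, while IL1R2, IL33, IL36G and IL36RN overlap.

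IL1A, the gene of interleukin-1 alpha, read 9.97, 10.09 and 10.05 in the mimic arrays and 10.74, 10.67 and 10.61 in the control arrays at probe set 210118_s_at. All mimic arrays lay below all control arrays, with a gap wider than the spread within either group. The mean was 10.04 ± 0.06 against 10.67 ± 0.06 (SD, n = 3 each), so control exceeded mimic 1.55-fold (log2 change -0.64 ± 0.06 SE, limma adjusted p = 2.49e-05). The second IL1A probe set, 208200_at, went the other way. It read 7.44, 7.55 and 7.63 with the mimic and 7.21, 7.26 and 7.32 in the control, again without overlap, a rise of 0.28 ± 0.07 (SE, limma adjusted p = 0.0124). The IL1A fall therefore holds for 1 of its 2 probe sets, and the opposite call of the second was lost without control replicate 1 (0.25, limma adjusted p = 0.0610). Of the 10523 genes with several probe sets, 1.08% had calls in both directions, as IL1A did. The suffix s_at marks a probe set that can match several transcripts. The positions of the probes on the IL1A transcript were not used here.

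IL1B, the gene of interleukin-1 beta, read 9.07, 8.87 and 8.88 with the mimic and 9.48, 9.41 and 9.37 in the control at 205067_at. The groups did not overlap, and the means were 8.94 ± 0.12 and 9.42 ± 0.06 (SD, n = 3 each). This was 1.40-fold higher in the control, with a limma adjusted p of 0.000496. Unlike IL1A, its second probe set moved the same way and by more. At 39402_at the mimic arrays read 7.82, 7.74 and 7.47 and the control arrays 8.77, 8.67 and 8.18, a log2 change of -0.86 ± 0.14 (SE, limma adjusted p = 0.000854). Control replicate 3 was the lowest control array there, and still above every mimic array.

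IL18, a ligand that epithelia store as a precursor, read 13.09, 13.13 and 13.12 in the mimic and 12.87, 12.66 and 12.75 in the control arrays. The mimic arrays were the tighter group and lay above all control arrays. The means were 13.12 ± 0.02 and 12.76 ± 0.10 (SD, n = 3 each), 1.28-fold higher with the mimic (log2 change 0.35 ± 0.07 SE, limma adjusted p = 0.00254). IL18 has 1 probe set, so no second reading was possible.

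IL33, an alarmin that signals through IL1RL1, read 4.13, 4.07 and 4.02 with the mimic and 4.02, 4.08 and 4.04 in the control. These values lay close to the lowest on the arrays, and the groups overlapped. The log2 change was 0.03 (95% confidence interval -0.11 to 0.16). No detection calls were used, so whether IL33 was transcribed at all is not known.

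IL36G, a ligand of skin and other surface epithelia, read 6.63, 6.78 and 6.99 with the mimic and 6.79, 6.91 and 6.89 in the control. Its mimic arrays spread across the whole control range, and its log2 change was -0.06 (95% confidence interval -0.26 to 0.13). IL36RN, the antagonist at the same receptor, read 6.98, 6.76 and 6.63 against 6.80, 6.51 and 6.81, with a log2 change of 0.09 (95% confidence interval -0.14 to 0.31). Both lay below the array medians. The data leave room for changes of up to the ends of those intervals in either gene.

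IL1RN, the interleukin-1 receptor antagonist, read 10.63, 10.74 and 10.66 in the mimic and 10.45, 10.42 and 10.33 in the control arrays at 212657_s_at. Every mimic array exceeded every control array, at 10.68 ± 0.06 against 10.40 ± 0.06 (SD, n = 3 each), 1.21-fold higher (limma adjusted p = 0.00826). The call was lost without mimic replicate 2 (log2 change 0.24, limma adjusted p = 0.0525). IL1RN has 5 probe sets, and the fitted change was above 0 at each of them. At 216244_at it passed as well, by 0.20 (limma adjusted p = 0.0481), from readings of 5.15, 5.02 and 5.19 against 4.92, 4.90 and 4.94, a call that was lost in 10 of 12 alternative fits (limma adjusted p = 0.0370 to 0.140 over the 12). At the other three the changes were 0.17 at 216243_s_at, 0.10 at 212659_s_at and 0.21 at 216245_at, with limma adjusted p-values of 0.0687, 0.321 and 0.155. Groups overlapped at the last pair.

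IL1R1, the signalling receptor, read 10.21, 10.31 and 10.43 with the mimic and 10.65, 10.59 and 10.55 in the control at 202948_at. The highest mimic array stayed below the lowest control array, and the means were 10.32 ± 0.11 and 10.60 ± 0.05 (SD, n = 3 each), a 1.22-fold excess in the control (limma adjusted p = 0.0142). At 215561_s_at it read 7.57, 7.54 and 7.56 against 7.78, 7.86 and 7.76, a log2 change of -0.24 ± 0.06 (SE, limma adjusted p = 0.0114). That call was lost without mimic replicate 2 (-0.24, limma adjusted p = 0.0551) and without control replicate 2 (-0.21, limma adjusted p = 0.0520). The call at 202948_at was lost without mimic replicate 2 (-0.28, limma adjusted p = 0.0539) and without control replicate 1 (-0.25, limma adjusted p = 0.0673). It was also lost once a trend of the change on intensity was removed (-0.21, limma adjusted p = 0.0543).

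IL1RAP, the accessory chain shared by the receptors for interleukin-1, interleukin-33 and interleukin-36, read 9.79, 9.59 and 9.72 with the mimic and 10.14, 10.01 and 9.95 in the control at 205227_at. The groups did not overlap, and the gene was 1.26-fold higher in the control (log2 change -0.33 ± 0.07 SE, limma adjusted p = 0.00641). Its dimmer probe set, 210233_at, read 4.81, 4.86 and 4.79 against 5.26, 4.94 and 5.21, a log2 change of -0.32 (limma adjusted p = 0.0181). The dimmer one missed the threshold without control replicate 1 (-0.25, limma adjusted p = 0.0889) and without control replicate 3 (-0.28, limma adjusted p = 0.0606), and the first after quantile normalization again (-0.26, limma adjusted p = 0.0524). IL1R2, the decoy receptor, read 6.79, 6.83 and 6.82 against 6.78, 6.88 and 6.72 at 205403_at. Its groups overlapped at both probe sets, with changes of 0.02 and 0.09 (limma adjusted p = 0.853 and 0.383).

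**Figure D2:**
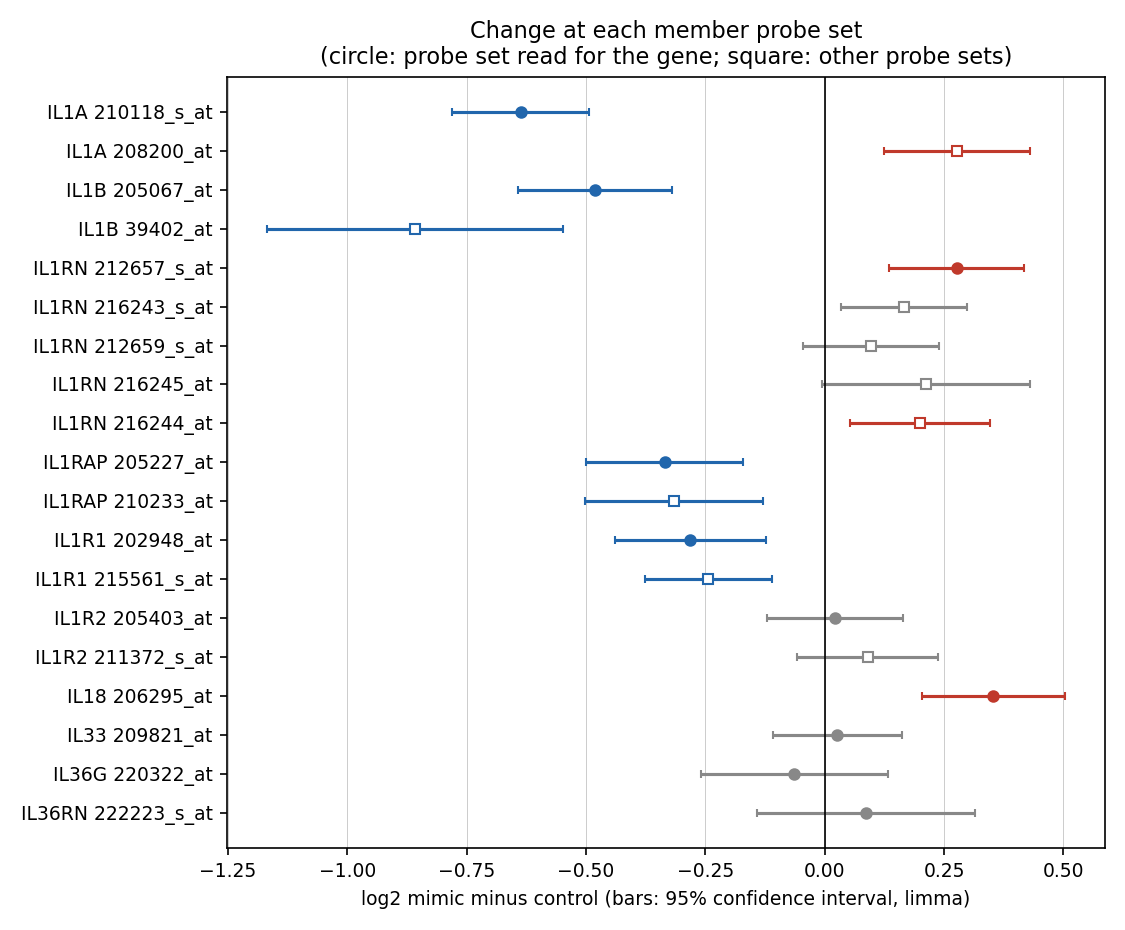
Log2 change (x axis, mimic minus control) at each of the 19 probe sets with its 95% confidence interval from limma; red and blue mark probe sets called higher and lower, grey those not called, circles the probe set read for the gene. The probe sets of IL1B, IL1RAP and IL1R1 lie left of 0 and those of IL1RN right of 0, whereas the IL1A probe sets lie on opposite sides, at -0.64 and 0.28.

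Of the 19 probe sets, 4 were called higher and 7 lower, where 24.8% of all probe sets were called, 11.6% higher and 13.1% lower. The groups did not overlap at 12 of the 19 (63.2%), where 39.2% of all probe sets had groups apart. The SD within a group ranged from 0.02 to 0.32 over these probe sets, the largest being that of the control arrays at the IL1B probe set 39402_at.

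Antagonist and agonist were also set against each other within each array, which shows unequal change and no difference in level between genes. IL1RN minus IL1A was 0.61 to 0.66 in the mimic arrays and -0.29 to -0.25 in the control arrays, a shift of 0.91 on the log2 scale or 1.88-fold. It rests on the IL1A probe set that fell, and with all probe sets of each gene averaged it was 0.37. IL1RN minus IL1B shifted by 0.76, from 0.96 to 1.01 in the control to 1.56 to 1.88 with the mimic. IL1R2 minus IL1R1 shifted by 0.30, nearly all of it the fall of IL1R1 (-0.28), since IL1R2, which had low signal, changed by 0.02. These 3 differences were higher in every mimic array than in any control array. IL36RN minus IL36G shifted by 0.15 with overlapping groups. The exact two-sided permutation test gave p = 0.10 for the first 3 differences, the smallest that 3 arrays against 3 allow, and p = 0.50 for the last (0.133 and 0.50 after Benjamini-Hochberg over the 4 comparisons). IL1RN lay higher and IL1A and IL1B lower without overlap, so the differences of IL1RN from each had to separate. For them the test adds nothing to the readings of the single genes.

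IL1A was the member with the largest change at the brightest probe sets. The genes whose pattern over the 6 arrays came closest to that of its probe set 210118_s_at were DHRS1, OCLN and ISOC2. The dimmer IL1A probe set, which rose, was not used for this. Each gene was centred on its own mean, and the Euclidean distances were 0.0327, 0.0332 and 0.0497 log2 units. DHRS1 encodes a short-chain dehydrogenase, and OCLN the tight junction protein occludin. Their log2 changes were -0.62, -0.64 and -0.63.

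Of the 10 genes 7 lie on chromosome 2, as do 15 of the 22 family genes considered. In the RefSeq order of protein-coding genes, IL1R2 and IL1R1 begin a run that goes on with IL1RL2, IL1RL1, IL18R1 and IL18RAP. A second run, 55 genes further on, goes IL1A, IL1B, IL37, IL36G, IL36A, IL36B, IL36RN, IL1F10 and IL1RN, with 0 other protein-coding genes between neighbours in either run. Neither run moved as a whole at the brightest probe sets: in the first IL1R1 fell while IL1RL1 and IL18R1 rose. In the second IL1A and IL1B fell while IL1RN rose, though the dimmer IL1A probe set rose.

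The promoters of IL1A, IL1B and IL1RN are shown to compare their sequence around the start site. IL1A and IL1B are the adjacent pair that fell at their brightest probe sets, though the dimmer IL1A probe set rose. IL1RN closes that run and rose. Each window holds 250 bases before and 50 after a RefSeq start (GRCh38.p14), printed 5′ to 3′ on the gene's strand, with capitals for matches to the AP-1 motif TGANTCA on either strand and to TATAAA on the gene's strand. The IL1A window, from 1 of the starts of that gene, lies at chr2:112784444-112784743 on the minus strand, and that of IL1B at chr2:112836730-112837029 on the minus strand. The IL1RN window, from 1 of its 3 starts, lies at chr2:113127348-113127647 on the plus strand.
IL1A: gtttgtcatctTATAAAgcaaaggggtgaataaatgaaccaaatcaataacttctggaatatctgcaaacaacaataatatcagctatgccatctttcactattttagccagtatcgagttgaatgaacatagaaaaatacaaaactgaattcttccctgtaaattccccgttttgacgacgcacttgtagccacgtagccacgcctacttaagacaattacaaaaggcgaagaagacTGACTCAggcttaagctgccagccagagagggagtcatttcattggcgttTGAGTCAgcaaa
IL1B: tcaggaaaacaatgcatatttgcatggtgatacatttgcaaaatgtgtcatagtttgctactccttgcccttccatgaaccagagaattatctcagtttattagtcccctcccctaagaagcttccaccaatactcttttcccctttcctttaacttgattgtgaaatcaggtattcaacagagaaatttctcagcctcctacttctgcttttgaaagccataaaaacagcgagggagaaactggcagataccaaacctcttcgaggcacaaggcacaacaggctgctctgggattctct
IL1RN: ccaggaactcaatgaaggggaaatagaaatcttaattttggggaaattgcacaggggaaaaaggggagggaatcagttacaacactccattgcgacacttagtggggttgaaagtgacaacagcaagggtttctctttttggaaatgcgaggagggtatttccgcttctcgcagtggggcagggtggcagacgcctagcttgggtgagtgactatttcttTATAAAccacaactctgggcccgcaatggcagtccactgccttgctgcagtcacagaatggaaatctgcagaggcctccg
The IL1A window holds TGACTCA from 12 to 6 bases before the start and TGAGTCA after it, and a TATAAA that begins 239 bases before it. At the other IL1A start the AP-1 matches begin 105 and 55 bases before it, and that window holds no TATAAA. The IL1B window holds no match to either motif. In the IL1RN window, the only IL1RN window with TATAAA, that match begins 30 bases before the start. A further IL1RN start has a TGAGTCA that begins 223 bases before it. Among 35116 windows of this length, 7.71% held the AP-1 motif and 7.33% TATAAA. RefSeq windows were matched for 9 of the 10 genes, 18 windows in all, several of which overlap. Of these 18 windows, 3 held the AP-1 motif and 3 TATAAA. The NF-kB motif, searched on both strands, was in 5.91% of all windows and, among the family's, in 1 of IL36RN only. No matches of different motifs overlapped in the family's windows. These are letter matches in short windows and not measured binding.

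Among 12 other ligands and receptors of the family, all measured, the receptors IL18R1, IL1RL1 and SIGIRR rose and 0 fell (limma), or 25% called beside 30.4% of all genes, and 0 had a negative change with an unadjusted p under 0.05. The list's median change was 0.06. IL18R1, which binds interleukin-18, read 9.33, 9.60 and 9.77 with the mimic and 8.68, 8.74 and 8.72 in the control arrays. The lowest mimic array lay above every control array, and the gene was 1.81-fold higher with the mimic (log2 change 0.85 ± 0.10 SE, limma adjusted p = 6.42e-05). So IL18 and its binding receptor were both called higher, while IL18RAP, the second chain of that receptor, had a log2 change of -0.02 (95% confidence interval -0.16 to 0.13). IL18BP, the secreted inhibitor of interleukin-18, had a change of 0.10 (95% confidence interval -0.07 to 0.26).

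IL1RL1, the receptor for interleukin-33, read 13.93, 13.92 and 13.99 with the mimic and 13.45, 13.48 and 13.49 in the control, 1.39-fold higher (limma adjusted p = 0.000117). Of its 4 probe sets 2 were called, both higher. Its ligand gene IL33 was near the array minimum in both groups, as given above. SIGIRR, a single-domain receptor that dampens interleukin-1 signalling, read 10.31, 10.38 and 10.41 against 9.79, 9.91 and 9.80, 1.45-fold higher with the mimic (limma adjusted p = 9.18e-05), and its second probe set rose by the same 0.54. The other 9 genes had changes from -0.10 to 0.10, with limma adjusted p-values from 0.305 to 0.890. They were IL36A, IL36B, IL37, IL1F10, IL18BP, IL1RL2, IL18RAP, IL1RAPL1 and IL1RAPL2.

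**Figure D3:**
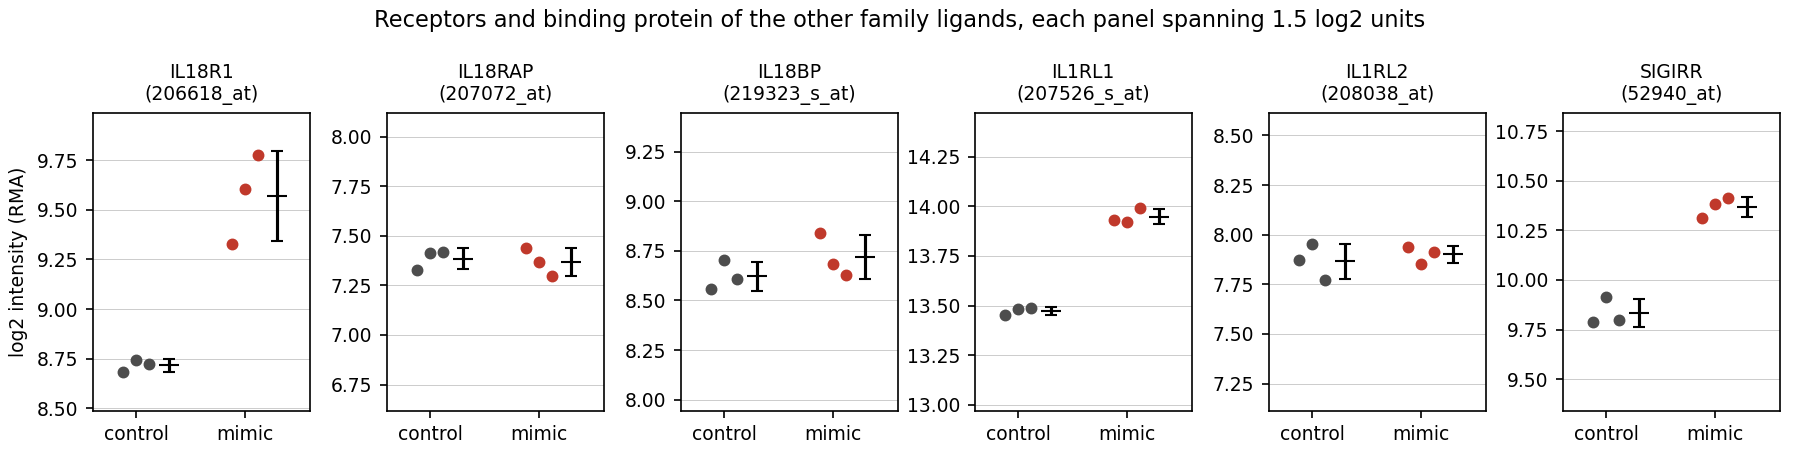
Log2 intensity (y axis) of 5 receptors and the binding protein IL18BP on the 3 control and 3 mimic arrays, with the mean and SD beside the points. IL18R1, IL1RL1 and SIGIRR lie higher in every mimic array, while IL18RAP, IL18BP and IL1RL2 overlap.

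Of 17 signalling genes downstream of the receptors 16 were measured; 3 rose and 4 fell (43.8% called, beside 30.4% of all genes), with a median change of 0.04. MYD88, the adaptor of the family's signalling receptors, rose 1.30-fold to 11.77 ± 0.04 from 11.39 ± 0.02 (SD, n = 3 each; limma adjusted p = 0.000589). TAB2, which links TRAF6 to the kinase MAP3K7, rose 1.35-fold, and the kinase gene MAP3K3 rose 1.17-fold. TRAF6 was not called at its brightest probe set (log2 change 0.17, limma adjusted p = 0.123) but was called higher at 227264_at (0.46, limma adjusted p = 0.000812). IKBKB, also not called at its brightest probe set, was called lower at 211027_s_at (-0.21, limma adjusted p = 0.0319). PELI1, a ubiquitin ligase that acts on IRAK kinases, fell most of the list, reading 7.61, 7.86 and 7.99 against 9.51, 9.35 and 9.34, 2.99-fold higher in the control (limma adjusted p = 4.63e-07). That fall was at 1 of 3 PELI1 probe sets, the brightest; the other two changed by 0.18 and 0.03 and were not called. PELI2 (log2 change -0.47), TAB3 (-0.30) and IRAK2 (-0.23) were the other falls, each at 1 probe set. The number of falls was 2 without mimic replicate 2 or without control replicate 2.

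Of 18 processing and release genes, all measured, 1 rose and 4 fell (27.8% called, near the share of all genes), with a median change of -0.0029. CASP1, the protease that matures interleukin-1 beta and interleukin-18, read 10.20, 10.22 and 10.30 with the mimic and 10.98, 10.86 and 10.80 in the control, 1.56-fold higher in the control (limma adjusted p = 3.57e-05). All 5 CASP1 probe sets were called lower, with log2 changes from -0.99 to -0.55; the suffixes x_at and s_at on 4 of them mean that related transcripts could add to the signal. GSDMD, whose cleaved product forms the pore for release, fell by 0.30, PYCARD, the inflammasome adaptor, by 0.24 and CASP8 by 0.22. At its other probe sets CASP8 changed by -0.13 and 0.14 and was not called. Some genes not called at their brightest probe set were called at dimmer ones. CTSS was higher at 202901_x_at (0.54) and 232617_at (0.23), NLRP1 higher at 1562257_x_at (0.27) and CARD8 lower at 228641_at (-0.22). HAX1, a mitochondrial survival protein, rose by 0.26. The count of falls was 2 without mimic replicate 2 or without any 1 control array, and the rise was lost without mimic replicate 2, mimic replicate 3 or control replicate 1.

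Of 30 genes that interleukin-1 is known to induce 26 were measured, and 4 rose and 11 fell. That was 57.7% called, beside 30.4% of all genes, with a median change of -0.09. Of the genes not called, IL6, CCL2, VCAM1, TNFAIP6, MMP1, MMP3 and TNF had means below the array medians in both groups. CSF3, NFKBIZ, RELB and NFKB2, also not called, were brighter. The list holds the neutrophil chemokine genes, which fell most: CXCL1 read 8.49, 8.70 and 8.62 with the mimic and between 12.72 and 13.10 in the control arrays. CXCL2, CXCL8 and CXCL3 had log2 changes of -3.02, -2.31 and -1.86. The probe sets read for CXCL2 and CXCL8 have the suffix x_at and may bind related transcripts. At the other CXCL2 probe sets the changes were -0.37 at 1569203_at (limma adjusted p = 0.0110) and 0.10 at 230101_at (limma adjusted p = 0.461). The other CXCL8 probe set, 211506_s_at, had a log2 change of -2.19. Other genes of the list moved against them. PTGS2, the inducible cyclooxygenase, read 8.09, 8.33 and 8.42 against 7.10, 6.81 and 6.98, 2.49-fold higher with the mimic at the first of its probe sets (limma adjusted p = 2.02e-06) and 2.55-fold at the second. The chemokine gene CCL20 rose 1.95-fold, and NFKBIA and TNFAIP3, feedback inhibitors of NF-kB, rose by 0.41 and 0.40 on the log2 scale. Genes of this list answer to many other signals, and earlier results on several of them were known when it was drawn up.

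**Figure D4:**
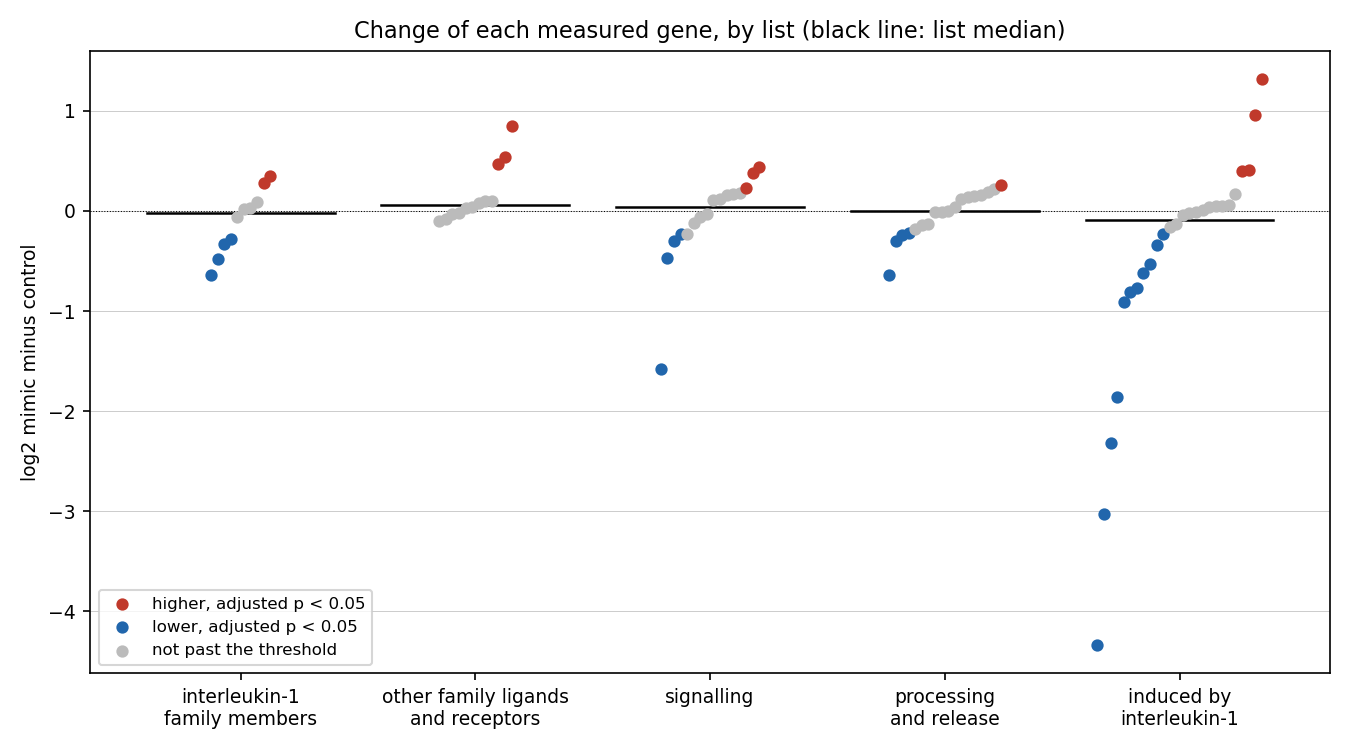
Log2 change (y axis, mimic minus control) of each measured gene in 5 lists, coloured by call, with a black line at each list's median. The 10 family members stay between -0.64 and 0.35, whereas the genes induced by interleukin-1 run from -4.33 for CXCL1 to 1.32 for PTGS2.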

How the data were processed

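Total RNA of 3 mimic and 3 control cultures was biotin-labelled and hybridised to 1 array each. Per the submitters' processing notes the authors used RMA (robust multi-array average), and the deposited values are log2 intensities per probe set, with no missing values. RMA makes array distributions alike, so a change in total RNA would be hidden, and differences between dim values are compressed. Its version is not given in the sources used here, nor are scan dates.

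The 62 control probe sets were left out and 54613 fitted with limma 3.58.1 (lmFit, eBayes) in R 4.3.3, mimic minus control, with Benjamini-Hochberg adjustment over all of them and a threshold of 0.05. Each of 19775 genes was read at its probe set with the highest mean. Symbols came from the platform annotation, and probe sets with several symbols named no gene. Whether values lie above background was not assessed. Tables and figures used Python 3.11.15, pandas 2.3.3, scipy 1.17.1 and matplotlib 3.10.9.

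The members, the lists, the tests and the other settings were chosen with earlier results of these data known, so list counts are descriptions. Named beside the members were genes called and without overlap: the 6 with the largest change in each list, any list's side with 5 or fewer calls, and the 3 genes closest in pattern to the member that changed most at its brightest probe set. Outside this rule, and with the calls known, further genes were named. They were TRAF6, IKBKB, CTSS, NLRP1 and CARD8, called only at a dimmer probe set, and the uncalled genes of the other family and induced lists. Genes of the lists without a named probe set (IRAK4, CSF2, BIRC3, ZC3H12A and DEFB4A) were not analysed here.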

Additional observations from a re-analysis of the deposited data

How the results depend on the processing

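Of 166 values of the 10 genes under other settings, 144 kept their direction and their side of the threshold, 12 calls were lost and 10 changed sign. The only called gene to change sign was IL1A without probe sets ending in s_at or x_at, which reads the gene at 208200_at and gives 0.28 (limma adjusted p = 0.0124). IL1RN then had 0.21 and missed the threshold (limma adjusted p = 0.155). With all probe sets averaged, IL1A changed by -0.18 (limma adjusted p = 0.0226). The other 9 sign changes were in uncalled genes with values near 0. IL1R2 gave -0.018 after quantile normalization again, -0.0078 with arrays centred on medians and -0.018 without the intensity trend, and IL33 gave -0.0023 with arrays centred on medians. Leaving out single arrays gave -0.017 to 0.066 for IL1R2, -0.00055 to 0.051 for IL33, -0.16 to 0.020 for IL36G and -0.013 to 0.17 for IL36RN, which was also -0.0073 without mimic replicate 1. The shifts of IL1RN minus IL1A, IL1RN minus IL1B and IL1R2 minus IL1R1 kept their direction under the settings run for them. The setting without s_at or x_at probe sets, in which IL1A rose by 0.28 and IL1RN by 0.21, was not run for these differences. IL36RN minus IL36G was -0.028 without mimic replicate 1 and up to 0.33 without another array.

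The sample titles do not say whether same-numbered arrays were paired. Deviations of same-numbered arrays from their group means correlated with r = -0.11, 0.0841 and 0.0817, and those of unlike numbers with r from -0.19 to 0.12. With so few arrays these values cannot decide whether the cultures were paired. With the replicate block, 2 of the 10 genes were higher and 4 lower, 2683 of all genes higher and 3129 lower. Leaving out single arrays gave 1 to 2 of the 10 genes higher and 3 to 4 lower, 2 to 5 signalling genes lower, and 0 to 2 processing genes higher and 2 to 3 lower.

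With a 1.5-fold minimum, by construction fewer genes passed: 0 of the 10 higher and 1 lower, 1 other family gene higher, 0 signalling genes higher and 1 lower, 0 processing genes higher and 1 lower, 2 induced genes higher, and 640 of all genes higher and 1083 lower. At an adjusted p under 0.01, 1815 of all genes were higher, 2 signalling genes lower, and 0 processing genes higher and 2 lower. Signalling genes higher numbered 6 after quantile normalization again and 5 without the intensity trend, and 2 were lower with probe sets averaged. Processing genes higher numbered 0 with arrays centred on medians, 2 without dim probe sets, after quantile normalization or without s_at and x_at probe sets, 3 without the intensity trend or with eBayes trend and robust, 4 with probe sets averaged and 5 with array weights. The cause of these differences was not tested. Low signal limits IL33, IL36G, IL36RN and IL1R2, which were left out with the dimmest 40% of probe sets.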
